A study of Mus musculus with 18 samples.

Results

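Zymosan-treated lung neutrophils of wild-type mice and of mice with chronic granulomatous disease (CGD) were compared for how far their CD101neg and CD101pos fractions differed. The members were all 12 zymosan libraries of the 18 in the series, chosen by their labels: 3 each of CGD CD101neg, CGD CD101pos, WT CD101neg and WT CD101pos cells. For each gene, the value reported is the log2 difference of CD101neg minus CD101pos in CGD, minus the same difference in WT. A positive value means that CD101neg cells stood higher, relative to CD101pos cells, in CGD than in WT, and a negative value means the opposite.

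All mice were C57BL/6. CGD mice carried a knockout of Cybb and WT mice did not, and the labels do not say how the allele was made. The 12 libraries came from female mice aged 13 weeks that had received 20 µg of sterile zymosan, a yeast cell wall preparation, by the nose 24 hours earlier. Digested lung was sorted for live CD45+ CD11b+ Ly6G+ cells and then on CD101, which appears on the surface late in neutrophil maturation; the labels name the CD101neg fraction immature and the CD101pos fraction mature. The other 6 libraries, from untreated male mice aged 12 weeks, held CD101pos cells alone and entered only the filter on low counts, the scaling and the estimate of gene-wise spread. Each group had 3 replicates, but the labels do not state that these were separate animals, so p-values measure the spread between samples that may be partly technical.

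Cybb encodes the membrane-bound catalytic subunit of the phagocyte NADPH oxidase, which makes superoxide during the oxidative burst. Patients and mice without a working oxidase have recurrent infections and excessive inflammation, also to sterile fungal material. Oxidants made by the enzyme can activate the transcription factor NRF2, which acts through antioxidant response elements on genes of peroxide removal, quinone reduction and haem breakdown. Immature neutrophils are released into blood and tissue during acute inflammation, beside the mature cells.

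The zymosan libraries held 51.9 to 67.9 M counts in genes, and replicates of a group correlated at 0.959 to 0.981 across genes. The scaling factors from the trimmed mean of M-values (TMM) were 0.702 to 0.809 in CGD CD101neg, 0.805 to 1.09 in CGD CD101pos, 0.933 to 1.20 in WT CD101neg and 0.867 to 1.13 in WT CD101pos cells. Mitochondrially encoded genes held 0.316 to 0.359% and 0.330 to 0.396% of counts in CGD CD101neg and CD101pos cells, against 0.492 to 0.581% and 0.425 to 0.571% in WT. The summed level of 8 neutrophil markers (Ly6g, S100a8, S100a9, Csf3r, Cxcr2, Retnlg, Itgam and Ptprc) lay between 17965 and 107949 CPM (counts per gene, scaled to the size of the library), lowest in WT CD101neg replicate 1 and highest in CGD CD101neg replicate 1. All 8 were detected in each group, and 0 of the 8 passed the interaction test of edgeR (0 at an unadjusted p under 0.05, and 0 with DESeq2), with a median value of 0.55. Cybb stood at 49.8, 40.5 and 45.0 CPM in CGD CD101neg and 34.6, 29.6 and 33.8 CPM in CGD CD101pos libraries, and at 254, 261 and 274 CPM in WT CD101neg and 187, 126 and 205 CPM in WT CD101pos libraries. All 6 CGD libraries lay below all 6 WT libraries, which matches their genotype labels. Its interaction value was −0.14 ± 0.25 (standard error, adjusted p = 0.832). Cd101, the sorting marker, was lower in CD101neg than in CD101pos cells of both genotypes, with levels of 54.1, 82.0 and 47.3 against 95.9, 106 and 112 CPM in CGD and of 159, 185 and 156 against 451, 322 and 436 CPM in WT. Its groups did not overlap within a genotype, and its interaction value was 0.50 ± 0.32 (adjusted p = 0.484).

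The subset difference depended on genotype for 141 of 16575 genes tested (0.851%), by edgeR's quasi-likelihood test with Benjamini-Hochberg adjustment at 0.05. Of these, 30 were higher (0.181%) and 111 lower (0.670%), while the median over all genes tested was −0.01. At an unadjusted p under 0.05, edgeR had 5.09% of all genes higher and 9.27% lower, and DESeq2 called 589 genes (3.55%) at an adjusted p under 0.05, 198 higher (1.19%) and 391 lower (2.36%). The lower genes included C1qa, Cd163 and other macrophage genes and Prdx1, Cat and other genes of peroxide and quinone metabolism, and the higher genes included Il12a, Irak3 and Slc44a1. Scaled by library size alone, which moved the median of all genes to −0.45, edgeR called 164 genes (0.989%), 1 higher (0.00603%) and 163 lower (0.983%). All 30 higher and all 111 lower genes kept their sign there, and 109 of the 141 passed again. All other values are given under TMM scaling.

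Most of the 141 genes had subset differences of opposite sign in the 2 genotypes, namely 27 of the 30 higher and 103 of the 111 lower genes. Among the 30 higher genes, all had a subset difference in CGD that passed on its own, with CD101neg above CD101pos, and 0 had one in WT. Among the 111 lower genes, CD101neg cells were below CD101pos cells of CGD in 99, past the threshold, and above those of WT in 12. The group farthest from the other 3 was CGD CD101neg in 24 of the higher genes, where it was high, and in 77 of the lower genes, where it was low. By the same measure CGD CD101pos stood apart on the high side for 19 lower genes and on the low side for 6 higher genes, and WT CD101neg on the high side for 13 lower genes. The 2 directions also differed in level, with a median of 62.4 CPM in the highest group for the higher genes and of 10.1 CPM for the lower genes, 55 of which stayed under 10 CPM in every zymosan group. The 3 patterns described next can be seen in the plot of CGD against WT subset differences.

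**Figure D1:**
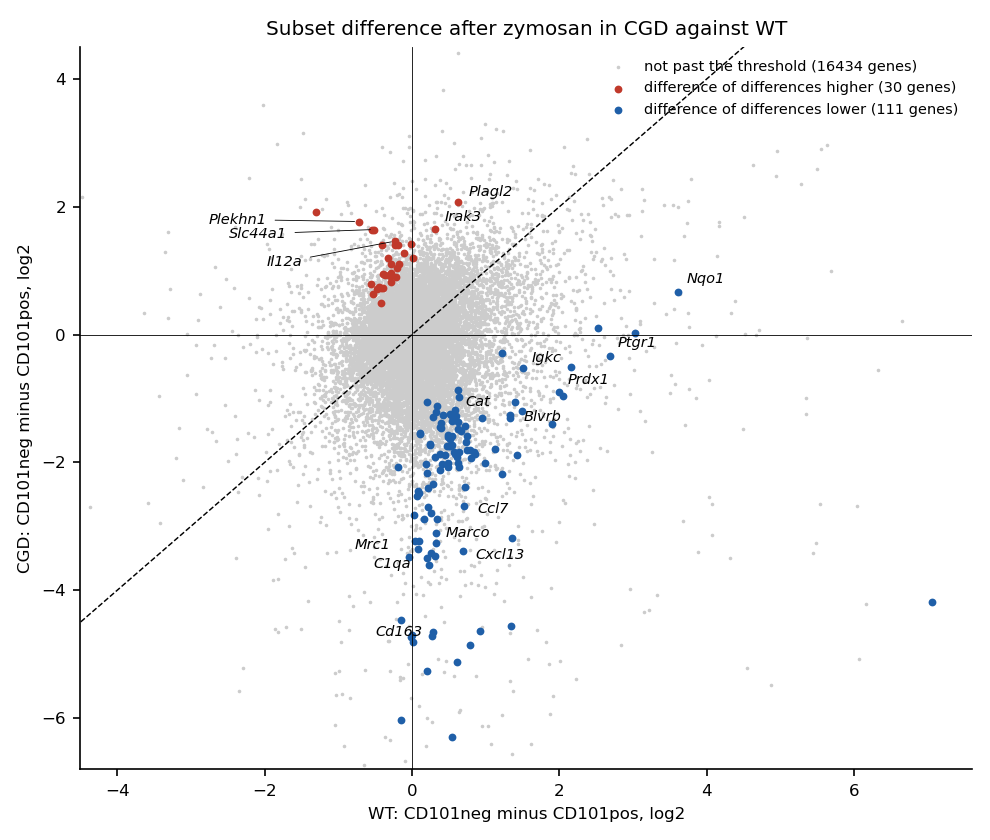
Each point is 1 of the genes tested, by its CD101neg minus CD101pos difference in WT (x axis, log2) and in CGD (y axis, log2). On the dashed line the 2 differences are equal. The 30 higher genes (red) lie above the line, at −1.31 to 0.62 in WT. The 111 lower genes (blue) lie below it, with a median of 0.52 in WT and values up to 7.05. Nqo1, Ptgr1 and Prdx1 are among those to the right. 27 genes, none of them past the threshold, lie outside the axes.

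Macrophage genes made up the group with the lowest values. The complement gene C1qa stood at 2.78, 2.91 and 2.06 CPM in CGD CD101neg against 23.4, 23.4 and 40.6 CPM in CGD CD101pos libraries, and at 10.4, 15.2 and 7.57 against 13.2, 10.04 and 5.55 CPM in WT. The CGD fractions did not overlap, the WT fractions did, and both WT groups lay between the CGD groups. Its interaction value was −3.70 ± 0.45 (adjusted p = 0.00100), a subset ratio 13.0-fold lower in CGD than in WT. C1qb and C1qc, which encode the other chains of the same C1q molecule, had values of −3.59 ± 0.49 and −3.83 ± 0.54 (adjusted p = 0.00226 and 0.00300). In bulk RNA of sorted cells, fewer cells of a type and less RNA per cell cannot be told apart.

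Cd163, the macrophage receptor for haemoglobin bound to haptoglobin, stood at 0.663, 0.590 and 0.976 CPM in CGD CD101neg and at 8.44, 20.8 and 26.8 CPM in CGD CD101pos libraries. In WT it stood at 2.32, 6.03 and 1.64 CPM in CD101neg and at 3.98, 2.15 and 2.01 CPM in CD101pos libraries. The WT fractions overlapped, and the CGD fractions were the lowest and the highest of the 4 groups. The interaction value was −4.94 ± 0.71 (adjusted p = 0.00307). Mrc1, the mannose receptor, stood at 2.80, 3.81 and 2.18 against 17.5, 31.8 and 49.0 CPM in CGD and at 12.1, 9.87 and 6.55 against 13.9, 7.03 and 8.55 CPM in WT, giving −3.43 ± 0.50 (adjusted p = 0.00307). Both genes had the same arrangement of groups as C1qa. F13a1, coagulation factor XIII A chain, had a value of −2.71 ± 0.44 (adjusted p = 0.00630), from 26.1, 23.3 and 15.04 against 60.3, 97.2 and 114 CPM in CGD and 34.1, 62.8 and 30.9 against 32.2, 30.7 and 19.5 CPM in WT. Only the CGD fractions of F13a1 were separate.

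Genes of secreted ligands also had negative values. Ccl7, a chemokine for monocytes, stood at 3.78, 9.08 and 11.3 against 34.8, 46.9 and 74.5 CPM in CGD, and at 21.6, 29.6 and 22.3 against 19.0, 13.5 and 12.3 CPM in WT (CD101neg against CD101pos). The CD101neg fraction was thus the lower one in CGD and the higher one in WT, with no overlap in either genotype, although the WT difference alone did not pass (adjusted p = 0.528). Its interaction value was −3.40 ± 0.53 (adjusted p = 0.00472). Cxcl13, the B cell chemokine, stood at 4.496, 13.2 and 5.20 against 87.6, 67.3 and 85.8 CPM in CGD and at 18.4, 40.1 and 16.2 against 21.2, 12.6 and 12.3 CPM in WT. Its WT fractions overlapped, and its value was −4.08 ± 0.66 (adjusted p = 0.00724). Ccl8, another monocyte chemokine, had −4.99 ± 0.83 (adjusted p = 0.00769), the lowest value among the genes named by the rule. Ccl12 had −3.68 ± 0.70 (adjusted p = 0.0177), and it missed the threshold without any 1 of CGD CD101pos replicate 3, CGD CD101neg replicate 3, CGD CD101neg replicate 2 and WT CD101pos replicate 2 (adjusted p up to 0.0581).

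Of the 16 monocyte and interstitial macrophage markers, 6 were lower, among them C1qa, C1qb, C1qc, F13a1 and Ms4a7, and 0 higher, with a median of −1.58. Among all genes tested 0.670% were lower. Of the 16 alveolar macrophage markers, 4 were lower (Marco, Mrc1, Ear1 and Ear2) and 0 higher, with a median of −2.06, against −0.01 over all genes. Marco, a scavenger receptor for particles, stood at 5.95, 4.86 and 3.97 against 20.0, 36.5 and 70.7 CPM in CGD and at 21.7, 15.2 and 16.4 against 15.2, 12.5 and 14.9 CPM in WT. Its CGD CD101neg libraries were below all others, and the value was −3.43 ± 0.69 (adjusted p = 0.0232). The fit missed the threshold for Marco without any 1 of 6 libraries, namely CGD CD101pos replicate 3, CGD CD101neg replicates 2 and 3, WT CD101pos replicates 2 and 3 and WT CD101neg replicate 1, with an adjusted p up to 0.0800. Ear1 and Ear2 encode closely related ribonucleases whose reads may be shared, so their values of −3.33 and −2.24 are uncertain. In the alveolar list 14 of 16 values were below 0, and in the monocyte and interstitial list 13 of 16. At an unadjusted p under 0.05 edgeR had 11 and 10 members lower and 0 higher, beside 9.27% of all genes lower. DESeq2 called 10 and 9 lower and 0 higher, beside 2.36% of all genes lower. Genes that did not pass include other defining markers of these cells. Fabp4 had −1.59 (adjusted p = 0.166). Among the few members above 0 were Siglecf at 0.49 (adjusted p = 0.688), Adgre1 at 0.05 (adjusted p = 0.950) and Csf1r at 0.24 (adjusted p = 0.715).

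The summed level of the alveolar macrophage list was 893 to 1259 CPM in CGD CD101neg and 1508 to 1723 CPM in CGD CD101pos libraries, against 1014 to 1938 and 1074 to 1641 CPM in WT. That of the monocyte and interstitial macrophage list was 930 to 1111 and 1183 to 1461 CPM in CGD, against 1227 to 1359 and 1154 to 1378 CPM in WT. Both sums were separate between fractions in CGD and overlapped in WT, and no member of either list was at 0 in all 3 libraries of a group. Ly6G, on which all cells were sorted, had a transcript value of 0.56 ± 1.36 (adjusted p = 0.881). The part of macrophage RNA or cells in the sorted fractions was not tested.

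**Figure D2:**
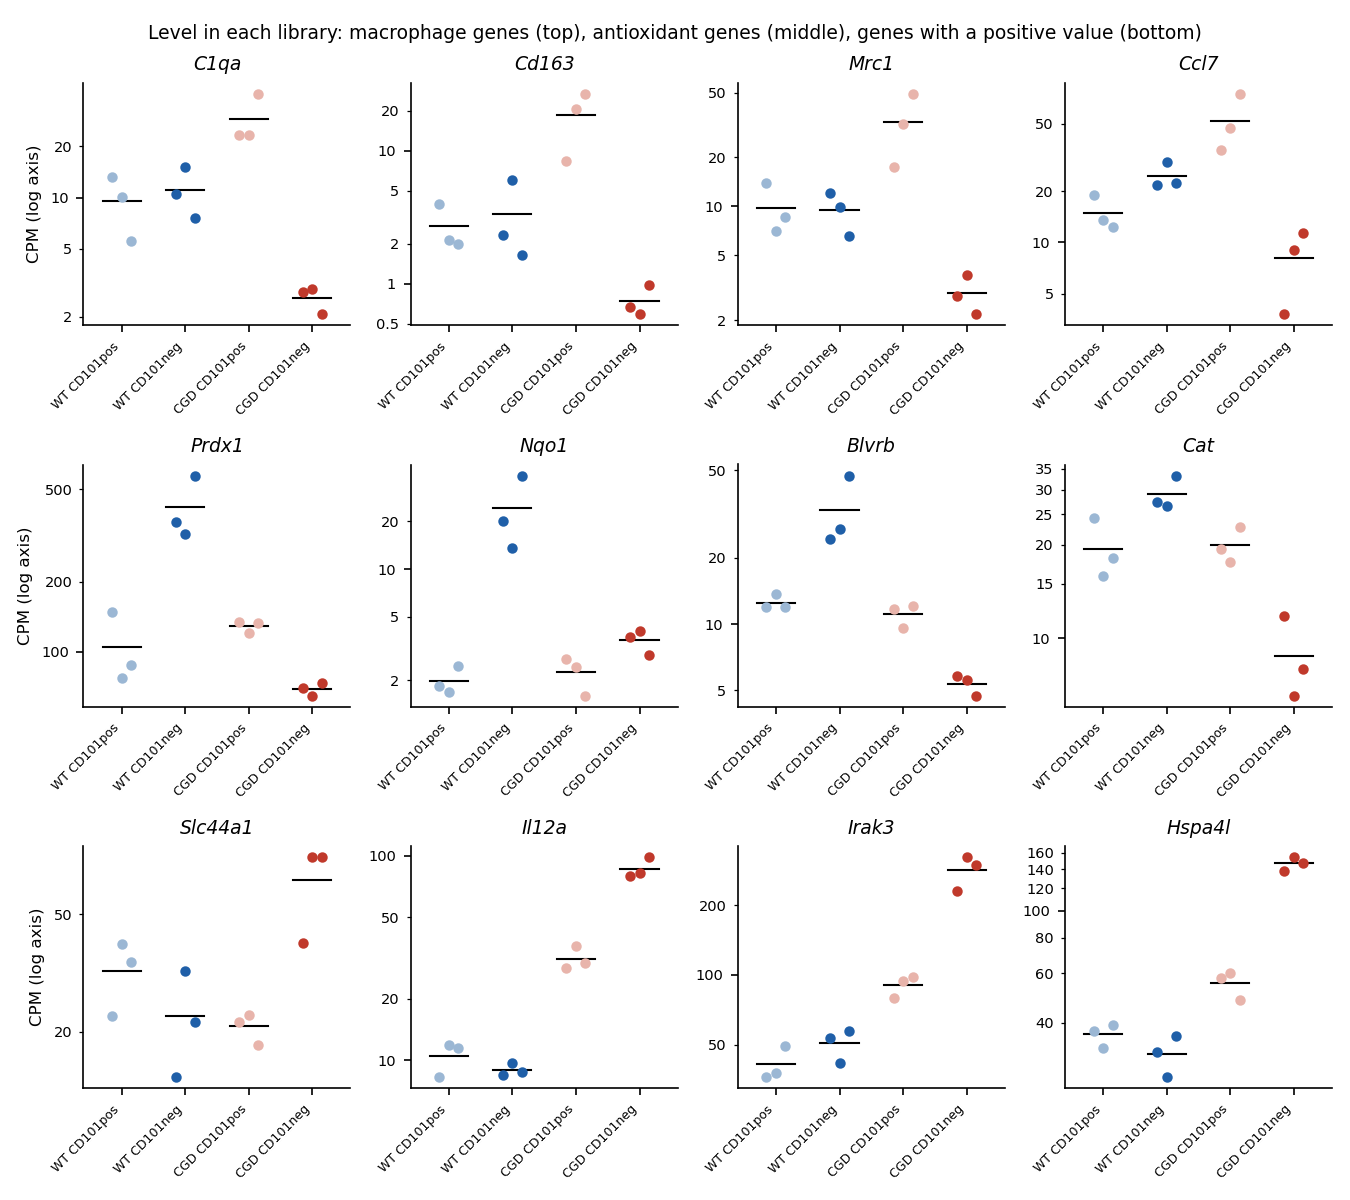
Level of 12 genes in each library (CPM, log axis), with a bar at each group's mean of 3. In the top row (C1qa, Cd163, Mrc1, Ccl7) the CGD CD101pos libraries are high and the CGD CD101neg libraries low. In the middle row (Prdx1, Nqo1, Blvrb, Cat) the WT CD101neg libraries are the highest. In the bottom row (Slc44a1, Il12a, Irak3, Hspa4l) the CGD CD101neg libraries lie above the CGD CD101pos libraries, and the WT fractions overlap.

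Markers of further cell types also had negative values. The dendritic cell list had 2 of 10 tested members lower (Ccr7 at −2.50 and Clec10a at −3.77), beside 0.670% of all genes tested. Among 15 T and NK cell and 11 B cell markers tested, 1 each was lower (Cd2, −2.59, and Igkc, −2.03). So was 1 of 12 fibroblast (Fbln1, −2.92) and 1 of 7 platelet markers tested (Pf4, −2.53). No member passed among eosinophil, basophil and mast cell, epithelial, endothelial and erythroid markers. At an unadjusted p under 0.05 edgeR had 2, 1, 5, 1 and 0 members of these 5 lists lower and 0 higher. Of all genes 9.27% were lower by that measure, and DESeq2 called 0 in each list. The medians of all 12 lists of other cells were below 0, while that of the neutrophil markers was above 0, as the plot of marker lists shows. The summed level of B cell genes was apart between genotypes, at 29.2 to 48.4 CPM in CGD CD101neg and 47.0 to 67.6 CPM in CGD CD101pos against 128 to 157 and 154 to 181 CPM in WT. Igkc, an immunoglobulin light chain, stood at 18.5, 32.6 and 19.1 CPM in WT CD101neg and at or below 10.05 CPM in every other zymosan library. Igkc passed in 3 of the 12 fits that left out a library, and its adjusted p reached 0.123 without CGD CD101pos replicate 2. Fbln1 and Ccr7 also passed in 3 of these fits, Clec10a and Pf4 in 6 and Cd2 in 9. In a fit of the 12 zymosan libraries alone all of these genes missed the threshold (edgeR adjusted p from 0.05002 for Cd2 to 0.0918 for Ccr7). Fbln1 stood at 0.142 to 3.54 CPM in the zymosan libraries.

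**Figure D3:**
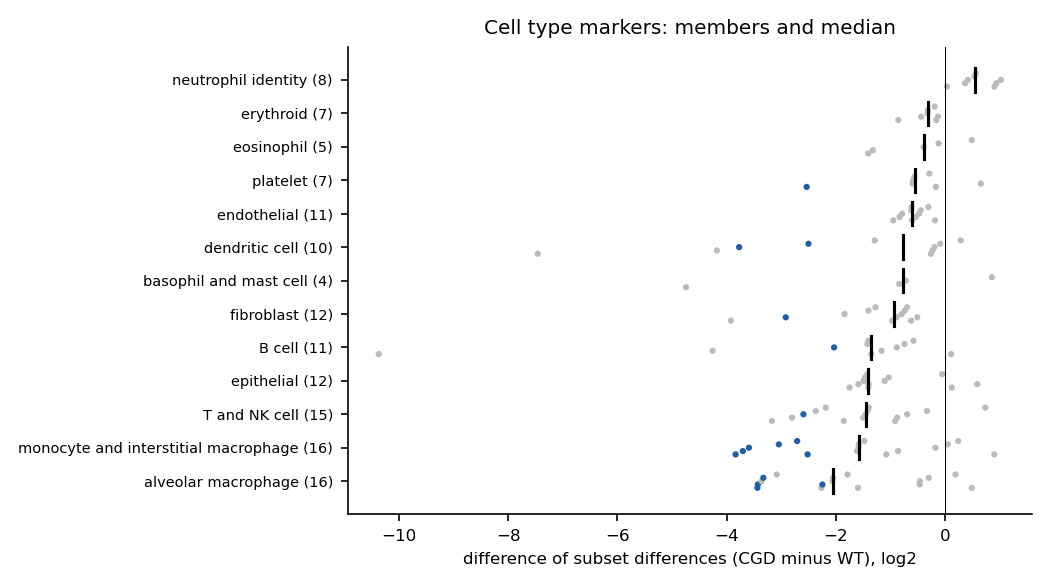
Interaction values (log2) of the tested members of the neutrophil list and of 12 lists of markers of other cells, with a bar at each median and members past the threshold in colour. The neutrophil median is 0.55 and the medians of the other 12 lists lie below 0.

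Some antioxidant genes formed the second pattern, in which WT CD101neg cells were high. The summed level of the antioxidant and NRF2 list, in which the most abundant members weigh most, was instead highest in CGD CD101neg cells. It was 77876 to 90690 CPM in CGD CD101neg and 47711 to 77818 CPM in CGD CD101pos libraries. In WT it was 51798 to 65362 CPM in CD101neg and 37004 to 44191 CPM in CD101pos libraries. The iron handling list, which shares Fth1, Ftl1 and Hmox1 with it, had a similar sum of 76618 to 92820 CPM in CGD CD101neg libraries. The sum does not describe the typical member, since the median log2 difference of CGD minus WT in CD101neg cells was −0.53 over the antioxidant list. Prdx1, a peroxiredoxin that removes hydrogen peroxide, had the lowest p of all genes tested. It stood at 362, 320 and 572 CPM in WT CD101neg against 148, 77.1 and 88.0 CPM in WT CD101pos libraries, and at 70.0, 64.6 and 73.2 against 135, 121 and 133 CPM in CGD. The fractions were separate in both genotypes and in opposite order. Each subset difference passed on its own (adjusted p = 0.000925 in WT and 0.0266 in CGD), and the interaction value was −2.90 ± 0.33 (adjusted p = 0.000968), a 7.47-fold lower subset ratio in CGD.

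The 250 bases before the start of Prdx1 are shown because NRF2 acts through the antioxidant response element, and the gene carries a match to it there. They come from RefSeq on GRCm38.p6, chr4:116685349-116685598, plus strand, and capitals mark the element TGACNNNGC, read on the opposite strand, 133 to 125 bases before the start.

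Prdx1: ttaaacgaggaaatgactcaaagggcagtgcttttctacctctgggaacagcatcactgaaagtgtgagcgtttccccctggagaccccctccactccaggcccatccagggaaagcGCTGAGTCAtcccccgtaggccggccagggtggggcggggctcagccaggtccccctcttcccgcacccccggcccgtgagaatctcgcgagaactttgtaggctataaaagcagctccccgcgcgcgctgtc

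The same bases overlap a match to the AP-1 motif TGANTCA. Searched on both strands, the element TGACNNNGC was in 10.2% of 32851 RefSeq promoters of this length, and in at least 1 promoter of 11.5% of 27025 genes. It was in 8 of the 27 antioxidant list genes with a promoter in the table, of which Prdx1 was the only 1 of the 4 that passed. A match is a sequence description and was not tested for binding.

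Blvrb, biliverdin reductase B of haem breakdown, repeated the arrangement of Prdx1. It stood at 24.5, 26.9 and 47.4 against 11.9, 13.7 and 11.9 CPM in WT and at 5.77, 5.58 and 4.72 against 11.7, 9.60 and 12.1 CPM in CGD. All 3 WT CD101neg libraries were above, and all 3 CGD CD101neg libraries below, the 6 CD101pos libraries. Its interaction value was −2.45 ± 0.31 (adjusted p = 0.00110). The subset differences of Prdx1 and Blvrb passed in both genotypes with opposite signs, as did that of 1 further gene, the processed pseudogene Gm7204 (−3.29 ± 0.57, adjusted p = 0.00851).

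Nqo1, a quinone reductase, stood at 20.3, 13.6 and 39.0 against 1.84, 1.68 and 2.44 CPM in WT and at 3.76, 4.07 and 2.88 against 2.73, 2.41 and 1.59 CPM in CGD. The CD101neg fraction was higher in both genotypes without overlap, by a log2 difference of 3.61 in WT and 0.67 in CGD, and only the WT difference passed on its own. The interaction value was −2.94 ± 0.57 (adjusted p = 0.0196), and it missed the threshold without any 1 of CGD CD101neg replicates 2 and 3, WT CD101neg replicate 3 and WT CD101pos replicate 2 (adjusted p up to 0.0575). Catalase (Cat), which breaks down hydrogen peroxide, stood at 27.4, 26.6 and 33.3 against 24.3, 15.8 and 18.1 CPM in WT and at 11.8, 6.55 and 8.01 against 19.4, 17.6 and 22.8 CPM in CGD. WT CD101neg libraries were the highest and CGD CD101neg libraries the lowest, and the value was −1.77 ± 0.30 (adjusted p = 0.00780). For the NRF2 list as a whole, 4 of 31 tested members were lower, beside 0.670% of all genes, and 0 higher, with a median of −0.71. Of its values 21 were below 0 and 10 above, up to 1.20.

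The other NRF2 targets differed in size. Hmox1, haem oxygenase, had −1.13 ± 0.35 (adjusted p = 0.138), from 476, 580 and 871 against 176, 221 and 208 CPM in WT and 202, 237 and 326 against 164, 146 and 214 CPM in CGD. Txnrd1, thioredoxin reductase, had −1.35 ± 0.38 (adjusted p = 0.106), Gclm, a subunit of the rate-limiting enzyme of glutathione synthesis, had −1.40 ± 0.60 (adjusted p = 0.291), and Srxn1, sulfiredoxin, had −0.92 ± 0.42 (adjusted p = 0.322). None of these 4 passed, and all were negative. Slc7a11, the cystine transporter, had −0.60 ± 0.33 (adjusted p = 0.407). The peroxiredoxin Prdx6 had 0.20 ± 0.28 (adjusted p = 0.783) and Nfe2l2, which encodes NRF2, had 0.04 (adjusted p = 0.960). At an unadjusted p under 0.05, 14 members of the list were lower and 1 higher, beside 9.27% and 5.09% of all genes. DESeq2 called 7 lower and 0 higher, beside 2.36% and 1.19% of all genes.

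Genes with a positive value formed the third pattern. Scaled by library size alone, 1 of the 30 passed, Slc44a1 (1.75, adjusted p = 0.0285). Slc44a1, a choline transporter, stood at 39.9, 77.9 and 77.9 against 21.7, 22.8 and 18.1 CPM in CGD, and at 14.1, 32.2 and 21.7 against 22.7, 39.7 and 34.4 CPM in WT. The CGD CD101neg libraries were above those of CGD CD101pos cells, and the WT fractions overlapped. The value was 2.15 ± 0.40 (adjusted p = 0.0145), a 4.45-fold higher subset ratio in CGD, and it missed the threshold without CGD CD101pos replicate 3 or CGD CD101neg replicate 2 (adjusted p up to 0.0603). Il12a, the p35 subunit of interleukin 12, stood at 79.2, 81.9 and 98.6 against 28.3, 36.2 and 29.8 CPM in CGD and at 8.50, 9.70 and 8.72 against 8.25, 11.8 and 11.4 CPM in WT. It was high in both CGD fractions and highest in CD101neg cells, while the WT fractions overlapped. Its value was 1.69 ± 0.37 (adjusted p = 0.0382). Among 39 tested members of the cytokine and chemokine list, Il12a was higher and Ccl7 lower, and the other 37 did not pass. The chemokines Ccl8, Ccl12 and Cxcl13, which were lower, are not on that list.

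Irak3, an inhibitor of signalling from Toll-like and interleukin 1 receptors, stood at 231, 324 and 299 against 79.7, 94.0 and 97.6 CPM in CGD and at 53.4, 41.5 and 57.5 against 36.1, 37.6 and 49.5 CPM in WT. It was highest in CGD CD101neg cells, the WT fractions overlapped, and its value was 1.35 ± 0.28 (adjusted p = 0.0239). The other 21 tested genes of the interleukin 1 and inflammasome list did not pass.

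Hspa4l, a chaperone of the Hsp110 family, stood at 138, 155 and 148 against 57.6, 60.3 and 48.1 CPM in CGD and at 31.6, 25.7 and 36.1 against 37.6, 32.7 and 39.3 CPM in WT, with a value of 1.64 ± 0.33 (adjusted p = 0.0213). Mcu, the pore of the mitochondrial calcium uniporter, stood at 62.1, 55.6 and 57.9 against 28.8, 26.6 and 26.6 CPM in CGD and at 24.0, 34.5 and 27.5 against 26.2, 34.5 and 36.5 CPM in WT, with a value of 1.28 ± 0.26 (adjusted p = 0.0232). In both genes the CGD CD101neg libraries were above the other 9 and the WT fractions overlapped. Neu1, a lysosomal sialidase, had 1.11 ± 0.25 (adjusted p = 0.0427), the only 1 of 24 tested lysosome genes past the threshold. The lysosome list otherwise had 17 of 24 values below 0 and a median of −0.42, with 5 members lower and 1 higher at an unadjusted p under 0.05. Over all genes these unadjusted shares were 9.27% and 5.09%. The remaining higher genes named by the rule had values from 1.25 (Stap1, a signalling adaptor) to 2.49 (Plekhn1), among them the transcription regulators Tsc22d4, Plagl2 and Sp110 and the transport protein Vamp5.

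Fewer of the higher than of the lower genes passed with each library left out in turn. With 1 zymosan library left out, edgeR called 1 to 89 genes higher and 40 to 408 lower. It called 3 higher without CGD CD101pos replicate 3, CGD CD101neg replicate 3, WT CD101pos replicate 3 or WT CD101neg replicate 1, 1 without CGD CD101neg replicate 2, 5 without CGD CD101pos replicate 2 and 10 without WT CD101neg replicate 3. It called 14 without WT CD101pos replicate 2, 18 without CGD CD101pos replicate 1, 47 without CGD CD101neg replicate 1, 73 without WT CD101neg replicate 2 and 89 without WT CD101pos replicate 1. Il12a passed in 3 of these 12 fits, Irak3 in 5, Hspa4l in 7, Mcu in 4 and Neu1 in 4, with an adjusted p of at most 0.118, 0.0981, 0.0734, 0.0828 and 0.133. Plekhn1 and Tsc22d4 each passed in 6 of them, Vamp5 in 4, Stap1 in 3, and Plagl2 and Sp110 each in 2. In a fit of the 12 zymosan libraries alone edgeR called 2 genes higher, Il12a and Hspa4l (adjusted p = 0.0205 and 0.0164), while Slc44a1, Irak3, Mcu and Neu1 missed the threshold (adjusted p = 0.0664, 0.0799, 0.0730 and 0.0984). Among the lower genes, 34 of 111 passed in each of the 12 fits, including C1qa, C1qb, C1qc, Cd163, Mrc1, Ccl7, Ccl8, Cxcl13, F13a1, Prdx1, Blvrb and Cat, and among the higher genes 1 of 30 (4930523C07Rik).

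**Figure D4:**
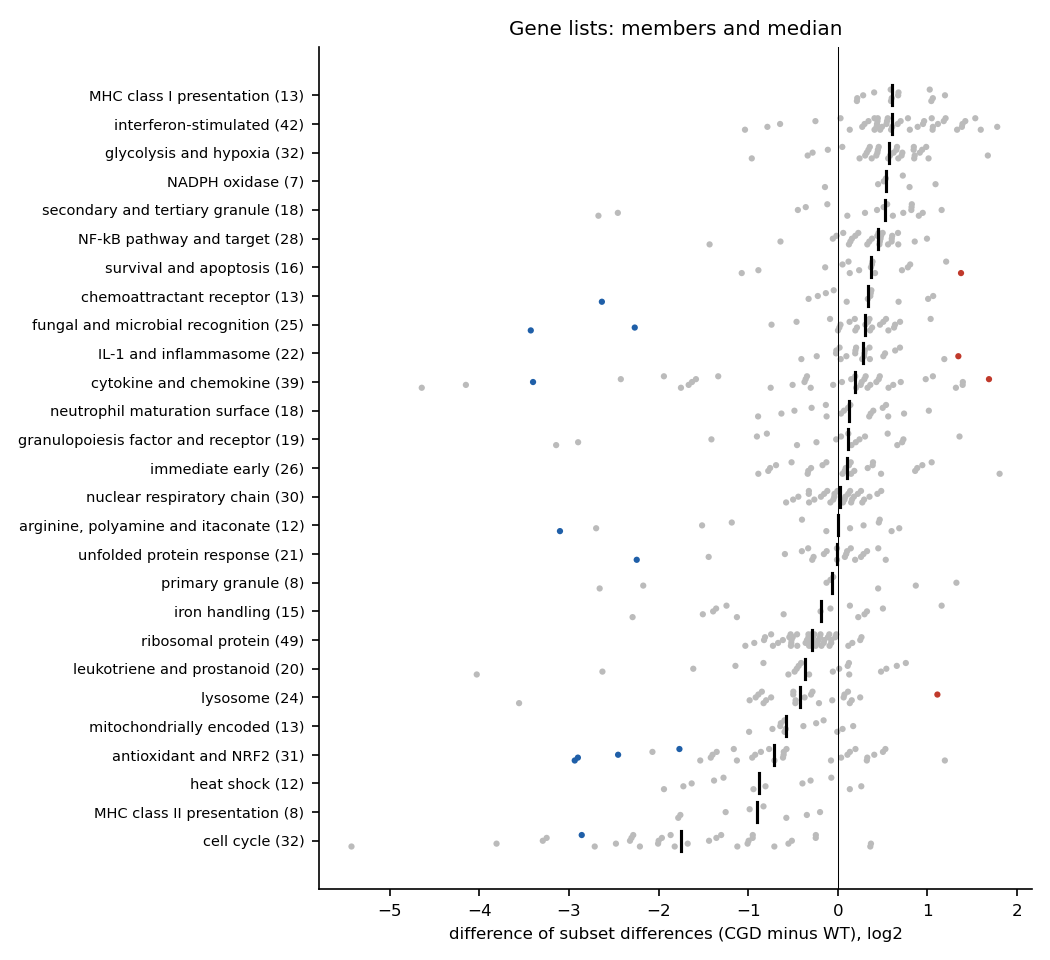
Interaction values (log2) of the tested members of 27 process lists, with a bar at each median and members past the threshold in colour. Antioxidant and cell cycle lists have medians below 0 (−0.71 and −1.75), and interferon-stimulated and class I presentation lists have medians above 0 (both 0.60) with no member past the threshold.

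Several of the 27 process lists leaned to one side of 0 without a member past the threshold. The counts below stand beside 5.09% of all genes higher and 9.27% lower at an unadjusted p under 0.05. With DESeq2 these shares were 1.19% and 2.36%. Interferon-stimulated genes had 0 of 42 tested members called by edgeR (1 higher and 0 lower at an unadjusted p under 0.05, and 0 with DESeq2), although 38 of 42 values were above 0 and the median was 0.60. The 13 genes of class I antigen presentation were all above 0, with a median of 0.60 and 0 called by edgeR (3 higher at an unadjusted p under 0.05, 0 with DESeq2), whereas the 8 class II genes were all below 0, with a median of −0.91 and 0 called (4 lower unadjusted, 2 lower with DESeq2). Glycolysis and hypoxia genes had 28 of 32 values above 0, a median of 0.57 and 0 called (6 higher and 1 lower unadjusted, 1 higher with DESeq2). The phosphofructokinase Pfkp had 0.92 ± 0.27 (adjusted p = 0.117). The NADPH oxidase list had a median of 0.54 with 0 of 7 called (2 higher unadjusted, 0 with DESeq2), and its cytosolic subunit Ncf1 had 1.09 ± 0.38 (adjusted p = 0.183). Scaled by library size alone, the medians of these lists stayed on their side of 0. They were 0.14 for interferon-stimulated, 0.16 for class I, −1.33 for class II, 0.15 for glycolysis and 0.11 for NADPH oxidase genes. NF-kB pathway and target genes had 24 of 28 values above 0 and 0 called (5 higher and 1 lower unadjusted, 2 higher with DESeq2). Their median of 0.45 moved to −0.01 under that scaling. Other positive medians also crossed 0, among them those of the interleukin 1 and inflammasome list (0.28 to −0.18) and the fungal and microbial recognition list (0.31 to −0.15).

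Cell cycle genes had the lowest median of the process lists, −1.75, with 30 of 32 values below 0. Of these Mcm5, a subunit of the replicative helicase, was lower at −2.86 ± 0.54 (adjusted p = 0.0170), with 14 members lower at an unadjusted p under 0.05 and 7 lower with DESeq2. Over all genes 9.27% were lower unadjusted and 2.36% lower with DESeq2. Mcm5 stood at 0.639, 0.671 and 0.408 against 2.17, 3.57 and 6.50 CPM in CGD and at 2.94, 1.95 and 2.57 against 3.65, 1.66 and 1.99 CPM in WT. The CGD fractions were separate and the WT fractions overlapped, as for the macrophage genes. Without CGD CD101pos replicate 3, CGD CD101neg replicate 3 or WT CD101pos replicate 3, Mcm5 missed the threshold (adjusted p up to 0.0596). Ribosomal protein genes had 45 of 49 values below 0 and a median of −0.29, with 0 called (11 lower unadjusted, 3 lower with DESeq2). Primary granule genes, which neutrophil precursors express, had a median of −0.07 with 0 of 8 called (0 unadjusted, 0 with DESeq2), and secondary and tertiary granule genes had a median of 0.53 with 0 of 18 called (1 higher unadjusted, 0 with DESeq2).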

How the data were processed

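RNA was measured by sequencing in 18 libraries of sorted mouse lung neutrophils, in 6 groups of 3. The authors deposited unnormalized counts of reads per gene. The submitters' processing notes name the aligner STAR (2.5.1a) and the Subread program featureCounts (1.4.6-p5), and the labels name the SMARTer kit and total RNA. Genome build, annotation and strand use: not given in the sources used here. Reads from overlapping or antisense genes and from close copies (Ear1 and Ear2, pseudogenes) therefore cannot be told apart. Of 40757 lines, 276 repeated a gene ID with the same counts and were used once.

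Counts were fitted with edgeR 4.0.16 (R 4.3.3), by the robust quasi-likelihood test with TMM factors in 1 fit of 6 groups and 12 residual degrees of freedom, after filterByExpr by group kept 16575 genes. The common coefficient of variation was 33.0%. The contrast was (CGD CD101neg − CGD CD101pos) − (WT CD101neg − WT CD101pos), and p-values were adjusted over all genes tested (Benjamini and Hochberg, 0.05). CPM use the TMM factors, and the standard error is the log2 value divided by the square root of F. The method was tested on counts simulated from the fitted group means and spreads. Libraries were drawn independently there, so that test cannot judge a replicate block.

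Of 745 list entries 5 matched no gene. Named genes were the 15 largest values in each direction among genes past the threshold whose highest zymosan group averaged 10 CPM or more, predicted gene models left out. From each list, with no CPM minimum, came up to 4 members past the threshold with the lowest p (2 where none passed), and then Cybb and Cd101. Other names (among them Siglecf, Fabp4, Adgre1, Csf1r, Hmox1, Gclm, Srxn1, Slc7a11, Prdx6, Nfe2l2, Gm7204 and 4930523C07Rik) were chosen after their values were seen. The members and lists were chosen with earlier results of these data known, so they are no independent support. Alternatives were RLE size factors, library size only, DESeq2 1.42.0, no filter on low counts, a stricter filter, the 12 zymosan libraries alone, 2 kinds of replicate block and each library left out. Some genes are not reported here. Promoters came from the RefSeq table on GRCm38.p6.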

Additional observations from a re-analysis of the deposited data

Results flagged for a closer look

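The difference of subset differences between CGD and WT was itself tested for each gene, as an interaction, and 141 genes passed in edgeR. Of these, 46 named by the rule follow with their log2 values. All 31 negative values belonged to genes whose CD101neg cells stood lower, relative to CD101pos cells, in CGD than in WT.

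The first group holds genes known from macrophages and genes of chemokines, and their source cells were not tested. Its values were −4.99 for Ccl8, −4.94 for Cd163, −4.31 for Fcrls and −4.08 for Cxcl13. Further values were −3.83 for C1qc, −3.70 for C1qa, −3.68 for Ccl12 and −3.59 for C1qb. They were −3.44 for Mgl2, −3.43 for Mrc1, −3.43 for Marco, −3.40 for Ccl7, −3.33 for Ear1, −2.71 for F13a1, −2.63 for C3ar1, −2.27 for Msr1 and −2.24 for Ear2. Markers of other cells had −2.92 (Fbln1), −2.59 (Cd2), −2.53 (Pf4), −3.77 (Clec10a), −2.50 (Ccr7) and −2.03 (Igkc). The peroxide, quinone and haem enzymes had −2.94 (Nqo1), −2.90 (Prdx1), −2.45 (Blvrb) and −1.77 (Cat). The remaining 4 lower genes were Slc7a2, an arginine transporter, at −3.10, Phgdh, the first enzyme of serine synthesis, at −3.04, the helicase subunit Mcm5 at −2.86 and the endoplasmic reticulum protein Sdf2l1 at −2.24.

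In the other direction the values were 2.49 for Plekhn1, 2.15 for Slc44a1, 1.69 for Il12a, 1.64 for Hspa4l, 1.60 for Atp10d, 1.53 for Tsc22d4, 1.45 for Plagl2 and 1.39 for Rnf141. They were 1.35 for Vamp5, 1.35 for Irak3, 1.34 for Mapre2, 1.29 for Sp110, 1.28 for Mcu, 1.25 for Stap1 and 1.11 for Neu1.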

How the results depend on the processing

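The direction of all 141 genes was kept under the 20 alternatives wherever they were tested, although 119 of the 141 were tested under the stricter filter. In edgeR's count of 141 genes (30 higher, 111 lower), RLE size factors gave 137 and the stricter filter 142. Calls were 589 with DESeq2 (198 higher, 391 lower, all 141 among them), 327 with no filter on low counts (41 higher, 286 lower) and 62 in the 12 zymosan libraries alone (2 higher, 60 lower). Scaling by library size alone gave 164 with 1 higher. Leaving out 1 library gave 43 to 497 genes (1 to 89 higher, 40 to 408 lower). The totals were 43 without CGD CD101pos replicate 3, 59 without CGD CD101neg replicate 3, 82 without CGD CD101pos replicate 2 and 47 without CGD CD101neg replicate 2. They were 154 without CGD CD101pos replicate 1 and 181 without CGD CD101neg replicate 1. In WT they were 45 without CD101pos replicate 3, 85 without CD101neg replicate 3, 59 without CD101pos replicate 2 and 234 without CD101neg replicate 2. Without WT CD101pos replicate 1 the total was 497, and without WT CD101neg replicate 1 it was 51. The cause was not tested. In every setting, 29 genes passed, all lower. A replicate block of libraries with the same number within a genotype gave 2229 genes (941 higher, 1288 lower) and called 37 of 46 named genes that had not passed without it, so counts of 0 for a list hold for the unblocked fit, and a replicate block by number over both genotypes gave 107 (10 higher, 97 lower). Deviations of same-numbered libraries correlated at 0.236, 0.0245 and 0.260 in CGD and 0.487, 0.425 and 0.312 in WT, so 1 of 6 pairs was under 0.1 and the numbers were not taken as pairs. All 12 libraries correlated best with their own number, a hint from the data and not the design. The common coefficient of variation between replicates was 33.0%, at 51.9 to 67.9 M counts a library, and counting error adds most to the 55 lower genes under 10 CPM.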

Other observations

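Some genes outside the rule for named genes, chosen after their values were seen, carried related functions. Mcub, whose protein replaces the pore subunit Mcu in the mitochondrial calcium uniporter and lowers its activity, was lower at −2.15 ± 0.50 (adjusted p = 0.0484), while Mcu was higher at 1.28. Mcub stood at 1.57, 0.712 and 1.88 against 2.92, 3.06 and 5.20 CPM in CGD and at 5.23, 3.31 and 6.15 against 3.07, 2.03 and 3.83 CPM in WT. The fractions were separate in CGD and overlapped in WT, and Mcub passed in 3 of the 12 fits that left out a library. Folr2, Cd209f and Timd4, markers of resident macrophages, had −4.71, −4.83 and −4.70 (adjusted p = 0.00754, 0.00617 and 0.0215).

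Ptgr1, an NADPH-dependent reductase, Klhl21, a ubiquitin ligase adaptor, and Creg1, a secreted lysosomal glycoprotein, were high in WT CD101neg cells, as were Prdx1 and Nqo1. Ptgr1 stood at 8.53, 6.68 and 18.6 against 2.19, 1.29 and 1.77 CPM in WT and at 3.07, 2.69 and 1.11 against 3.58, 2.08 and 3.003 CPM in CGD, and its value was −3.01 ± 0.61 (adjusted p = 0.0237). Creg1 stood at 217, 187 and 384 against 128, 99.1 and 110 CPM in WT and at 54.3, 53.4 and 47.2 against 82.7, 50.5 and 55.0 CPM in CGD, with a value of −1.50 ± 0.35 (adjusted p = 0.0467). Klhl21 had −2.43 ± 0.54 (adjusted p = 0.0413). In all 3 genes the WT fractions were separate and the CGD fractions overlapped.

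The lowest value of all, −11.2 for the immunoglobulin heavy chain Igha (adjusted p = 0.0462), rested on 3.10 and 16.5 CPM in WT CD101neg replicates 1 and 2, against 0 CPM in replicate 3 and at most 0.251 CPM in the other 9 zymosan libraries.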
